A study of Homo sapiens with 64 samples.

Results

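The BMP and TGF-beta response genes were 10 genes, ID1, ID2, ID3, ID4, SMAD6, SMAD7, SMAD9, BMP2, BMP4 and BAMBI, taken by symbol from the 54127 genes counted in each of 64 RNA sequencing libraries of human colorectal cancer cell lines. They were chosen by symbol for their place in the pathway, at a time when earlier results of these data were known, and the rule itself uses no measured value. In 48 libraries, cells of HT55 and SW948 (subtype CCS1), RKO and SW48 (CCS2) and DLD1 and HCT15 (CCS3) had been loaded with CFSE, a dye that every division dilutes, grown as nonadherent spheroids in serum-free medium with EGF and bFGF, and sorted after 6 days into label-retaining cells (LRCs, dye high) and non-LRCs (called bulk in the labels). Each line gave 4 replicates of each population. The other 16 libraries were unsorted controls labeled DLD1, carrying CFSE or only DMSO, on day 1 and on day 5 of the labels (day 6 in the design description), with 4 replicates per group. No gene was deleted and no drug was given in any group. Every line is a single established cell line, so a difference between lines is not a difference between subtypes.

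Ligands of the BMP and TGF-beta family bring type I and type II receptors together, and the receptors phosphorylate SMAD proteins that join SMAD4 and act on target genes in the nucleus. The ID genes, which encode helix-loop-helix proteins without a DNA-binding region, are direct targets of the BMP branch, and SMAD6, SMAD7 and BAMBI are targets that feed back to damp the signal. In the normal colon, BMP signaling is known to be low at the crypt base, where the stem cells lie, and higher toward the surface, where cells are differentiated.

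Between 12237225 and 20913455 reads per library were counted on genes, and levels are given as CPM, a gene's count relative to the TMM-scaled size of its library. Of 7 epithelial markers, 6 or 7 reached 1 CPM in every group. Of the 5 fibroblast, 4 leukocyte and 3 endothelial markers, at most 1 of each list reached 1 CPM in any group, the highest summed levels in a library were 13.6, 22.1 and 3.55 CPM, and CD3E was at 0 in all 64 libraries. PECAM1, on the endothelial list, was not analysed here. The line labels of the controls and of the sorted libraries did not match. Of 170 genes more than 4 log2 units apart between sorted DLD1 and HCT15 non-LRCs, each control library was nearer to HCT15 for 143 to 170, and these libraries are therefore called the controls labeled DLD1. This does not tell whether the control labels or the sorted DLD1 and HCT15 labels are wrong. Sorted DLD1 and HCT15 libraries are likewise named by their labels. The DMSO replicate 4 of day 1 also stood apart, with a correlation across genes of 0.993 with DMSO replicates 3 and 4 of day 5 and of 0.973 to 0.979 with its own group, so counts and values of the 10 genes that rest on it are given with and without it. CFSE day 1 replicates 1 and 2 also differed from replicates 3 and 4, the chi-square averaging 54.2 to 70.8 per gene between the 2 sets and 5.94 and 4.09 within them. CFSE day 5 split in the same way (17.3 to 35.4 between, 5.45 and 6.78 within). So did DLD1 non-LRCs (9.16 to 15.6, 4.22 and 2.60), DLD1-LRCs (11.6 to 18.6, 4.58 and 2.60) and HCT15-LRCs (21.1 to 30.4, 9.36 and 6.27). Not every group split so. Whether the 4 replicates of these groups are 4 independent units is not known. The study's methods call its replicates biological, but neither these nor the labels say which steps were separate, and p-values measure the spread between these libraries. In bulk libraries, a lower level in fewer cells and less RNA per cell cannot be told apart.

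The genes lie on 9 chromosomes, at chr20:30193086-30194318 (ID1), chr2:8818975-8824591 (ID2), chr1:23884417-23885992 (ID3), chr6:19837601-19842428 (ID4), chr15:66994574-67075187 (SMAD6), chr18:46446223-46477335 (SMAD7), chr13:37418968-37495024 (SMAD9), chr20:6748333-6760893 (BMP2), chr14:54416454-54425479 (BMP4) and chr10:28966439-28971861 (BAMBI) of GRCh37, the build of the counts. ID2 shares 125 exonic bases with the antisense gene ID2-AS1 on the other strand, and because the sources used here do not state stranded counting, reads there cannot be assigned with certainty. ID2-AS1 had 1327 counts over all 64 libraries against 192832 for ID2. BMP4 overlaps a noncoding gene on the other strand by 506 exonic bases.

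Promoters are shown for 4 genes that mark the range of SMAD-type letters found near the starts, from none to several. RefSeq (GRCh38.p14) gave the 250 bases before 13 annotated starts of 9 of the 10 genes, with no entry for BMP2. Searches were made on both strands for GGCGCC, a GC-rich motif bound by BMP SMADs that reads the same on both strands, and for CAGAC or GTCTG, the letters of the SMAD-binding element. Capitals mark every match to these and to the palindrome GTCTAGAC, a textbook SMAD site that was searched only after the sequences had been read. The sequences lie at chr20:31605039-31605288 (plus strand), chr1:23559502-23559751 (minus strand), chr15:66701986-66702235 (plus strand) and chr10:28677271-28677520 (plus strand) and are written 5′ to 3′, ending at the base before the start.
ID1: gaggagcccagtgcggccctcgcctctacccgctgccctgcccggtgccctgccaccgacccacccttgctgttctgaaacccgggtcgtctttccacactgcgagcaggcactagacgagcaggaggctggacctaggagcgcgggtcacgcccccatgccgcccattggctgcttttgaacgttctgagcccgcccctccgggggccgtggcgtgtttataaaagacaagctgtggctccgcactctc
ID3: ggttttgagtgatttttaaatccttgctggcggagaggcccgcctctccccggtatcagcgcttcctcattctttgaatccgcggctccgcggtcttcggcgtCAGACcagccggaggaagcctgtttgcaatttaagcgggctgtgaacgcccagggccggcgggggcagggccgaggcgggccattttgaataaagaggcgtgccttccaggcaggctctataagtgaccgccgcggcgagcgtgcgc
SMAD6: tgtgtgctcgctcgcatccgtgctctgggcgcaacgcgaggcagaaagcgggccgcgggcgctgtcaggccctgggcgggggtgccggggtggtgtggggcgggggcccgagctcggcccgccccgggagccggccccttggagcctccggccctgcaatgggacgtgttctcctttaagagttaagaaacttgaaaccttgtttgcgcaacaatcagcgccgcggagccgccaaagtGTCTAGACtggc
BAMBI: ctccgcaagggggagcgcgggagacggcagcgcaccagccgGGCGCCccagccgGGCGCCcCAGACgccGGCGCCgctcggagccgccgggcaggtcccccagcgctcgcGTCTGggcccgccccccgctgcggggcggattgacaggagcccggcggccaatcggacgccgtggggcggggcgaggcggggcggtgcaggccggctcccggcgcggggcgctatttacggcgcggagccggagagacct
BAMBI held 3 copies of GGCGCC, 209, 196 and 181 bases before its start. A cutoff of 3 or more copies, set at the number in BAMBI and not planned, was met by 0.527% of 35116 promoters. Only BMP4 of the other genes held GGCGCC, so that 2 of 13 promoters of these genes held it, near the 16.4% of all promoters. CAGAC or GTCTG was found in BAMBI, BMP4, ID3, ID4 and SMAD7, 5 of 9 genes. Counted by promoter, it was in 7 of 13 for these genes and in 38% of all promoters. The palindrome lay 12 bases before the start of SMAD6 and in 0.182% of all promoters. ID1, ID2 and SMAD9 held none of these letters in this window, which says nothing of sites elsewhere.

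Levels were first compared between the lines in non-LRCs. RKO stood apart from the 5 other lines: ID1, ID2, ID3, SMAD6, SMAD7 and BMP4 were all lower there than in any other line, while SMAD9 was at its highest. All 10 genes differed between the lines by the F test of edgeR over 24 libraries, but so did 98.3% of all genes tested, so the order of the lines is the informative part. Of 150 comparisons of a gene between a pair of lines, 131 passed (87.3%), against 71.2% over all genes and pairs. Values below are the mean ± SD of 4 replicates, and neighbors in the order are said to differ where the adjusted p-value of edgeR, over all genes and 15 pairs of lines, was under 0.05.

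Among the ID genes, ID1 was at 300.3 ± 15.8 CPM in DLD1, 295 ± 47.4 CPM in HT55 and 293 ± 99.6 CPM in HCT15, and these neighbors did not differ beyond their spread (adjusted p = 0.95 and 0.883). It was lower in SW48 (167 ± 30.4 CPM), lower again in SW948 (69.9 ± 10.6 CPM) and lowest in RKO (2.51 ± 0.562 CPM). The 4 RKO libraries held 2.03, 2.27, 2.43 and 3.32 CPM and the 4 SW948 libraries 62.4, 85.4, 63.9 and 67.7 CPM, a 27.8-fold gap between the means with no overlap (adjusted p = 2.02e-15). ID2 followed another order above RKO, falling in every step from HCT15 (396 ± 60.7 CPM) through SW48 (290.0 CPM), DLD1 (223 CPM), HT55 (126 CPM) and SW948 (57.4 CPM) to RKO (1.49 ± 0.605 CPM). Each of these 5 steps passed the test, with RKO 38.5-fold below SW948. ID3 was at 294 ± 75.5 CPM in SW48, 258 ± 23.1 CPM in DLD1 and 229 ± 66.7 CPM in HCT15, levels that did not differ from neighbor to neighbor (adjusted p = 0.367 and 0.372). HT55 (110.4 CPM), SW948 (75.1 CPM) and RKO (2.99 ± 0.917 CPM) were each lower than the line before. ID4 was a gene of HT55, with 51.2, 38.3, 46.1 and 47.1 CPM in its 4 non-LRC libraries and 44.9, 42.5, 39.6 and 49.5 CPM in its LRCs. It reached 1.40 CPM in SW948 and 1.13 CPM in SW48, which did not differ (adjusted p = 0.446), and stayed under 0.1 CPM in HCT15 and DLD1. No ID4 read was counted in any of the 4 RKO non-LRC libraries, and a count of 0 there allows up to 0.0522 CPM over the group.

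The inhibitors of the pathway were spread over different lines. SMAD6, which blocks BMP receptor SMADs, was highest in HT55 at 25.9 ± 5.11 CPM, 2.14-fold above HCT15 (12.1 ± 3.99 CPM). SW48, SW948 and DLD1 lay at 7.92, 7.62 and 6.40 CPM and did not differ from neighbor to neighbor (adjusted p = 0.799 and 0.283). In RKO the 4 libraries held only 0.0752, 0.0648, 0.0784 and 0.250 CPM of SMAD6, 54.6-fold below DLD1. SMAD7, which acts on both branches at the receptor, was highest in SW48 (101 ± 18.3 CPM), followed by DLD1 (75.9 CPM), HCT15 (64.3 CPM) and HT55 (37.6 CPM). DLD1 and HCT15 did not differ (adjusted p = 0.139). Both SW948 (7.89 ± 0.173 CPM) and RKO (2.63 ± 0.791 CPM) had little SMAD7. BAMBI, a receptor-like protein without a kinase that holds back type I receptors, was at 658, 609, 645 and 622 CPM in the 4 SW48 libraries, above every other line, and at 228 ± 60.9 CPM in HT55, 95 ± 19.9 CPM in HCT15 and 45.6 ± 4.77 CPM in DLD1. RKO (5.02 ± 0.749 CPM) and SW948 (4.30 ± 0.224 CPM) were lowest and did not differ (adjusted p = 0.305).

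SMAD9, a SMAD that BMP receptors phosphorylate, ran in the other direction. It was at 26.8, 27.3, 23.5 and 26.2 CPM in the RKO libraries (25.9 ± 1.67 CPM) and at 23.6 ± 8.29 CPM in HCT15, which did not differ (adjusted p = 0.496). SW48 (16.9 ± 2.56 CPM) and DLD1 (5.51 ± 0.929 CPM) were lower, and HT55 (0.0940 ± 0.0967 CPM) and SW948 (0.0347 ± 0.0403 CPM) had almost none. Among the ligands, BMP2 was at 19.9 ± 3.71 CPM in DLD1 and 18.3 ± 1.99 CPM in SW948, which did not differ (adjusted p = 0.547). It was 7.15-fold lower in HT55 (2.56 ± 0.981 CPM), under 1 CPM in RKO and HCT15, and without a read in the 4 SW48 libraries, where a count of 0 allows up to 0.0512 CPM over the group. BMP4, the other ligand, was most abundant where BMP2 was missing, with 1867, 1890.0, 1668 and 1644 CPM in SW48. Each of 5 steps down from there passed the test, to DLD1 (834 ± 54.3 CPM), HT55 (611 ± 80.8 CPM), HCT15 (401 ± 37.4 CPM), SW948 (177 ± 18.6 CPM) and RKO (1.71 ± 0.154 CPM). The 4 RKO libraries held 1.73, 1.81, 1.49 and 1.82 CPM of BMP4, 104-fold below SW948 (adjusted p = 2.43e-23).

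RKO also had low levels of one signal-carrying SMAD and of some receptors, genes named after their values were seen. SMAD3, which carries the TGF-beta branch, was at 2.68 CPM in RKO non-LRCs and between 52.6 and 166 CPM in the other lines. SMAD1, SMAD2, SMAD4 and SMAD5, at 20.2, 102, 86.6 and 77.3 CPM in RKO, lay within the range of the other lines. The BMP type II receptor BMPR2 was at 32.0 CPM in RKO against 99.2 to 119 CPM elsewhere, and the TGF-beta type II receptor TGFBR2 at 33.5 CPM against 89.0 to 475 CPM. ACVR2A, an activin type II receptor, was at 9.31 CPM in RKO and 10.3 CPM in SW48, with 20.3 to 33.0 CPM in the rest. Not all receptors were low in RKO. ACVR1 was at its highest there, at 47.2 CPM against 25.6 to 37.2 CPM elsewhere. BMPR1A, at 38.0 CPM in RKO, lay within the 23.7 to 52.1 CPM of the other lines. All 72 other pathway genes tested differed between the lines, as did 98.3% of all genes tested.

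Per kilobase of exon, the scale on which genes can be set against each other, BMP4 led in SW48 non-LRCs at 571 CPM per kb, ahead of BAMBI (296), ID3 (196), ID1 (136), ID2 (131), SMAD7 (25.6), SMAD9 (2.84), SMAD6 (0.926) and ID4 (0.291). In HCT15 non-LRCs ID1 led at 238 CPM per kb, before ID2 (179), ID3 (153) and BMP4 (129). In RKO non-LRCs SMAD9 was the most abundant of the 10 at 4.35 CPM per kb, followed by BAMBI (2.35) and ID1 (2.04). These orders use the union of a gene's exons. With the longest transcript as length, ID3 (241) stood above ID1 (238) and BMP4 (208) above ID2 (194) in HCT15, ID2 (142) above ID1 (136) in SW48, and ID3 (3.15) was next to SMAD9 (4.66) in RKO.

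**Figure D1:**
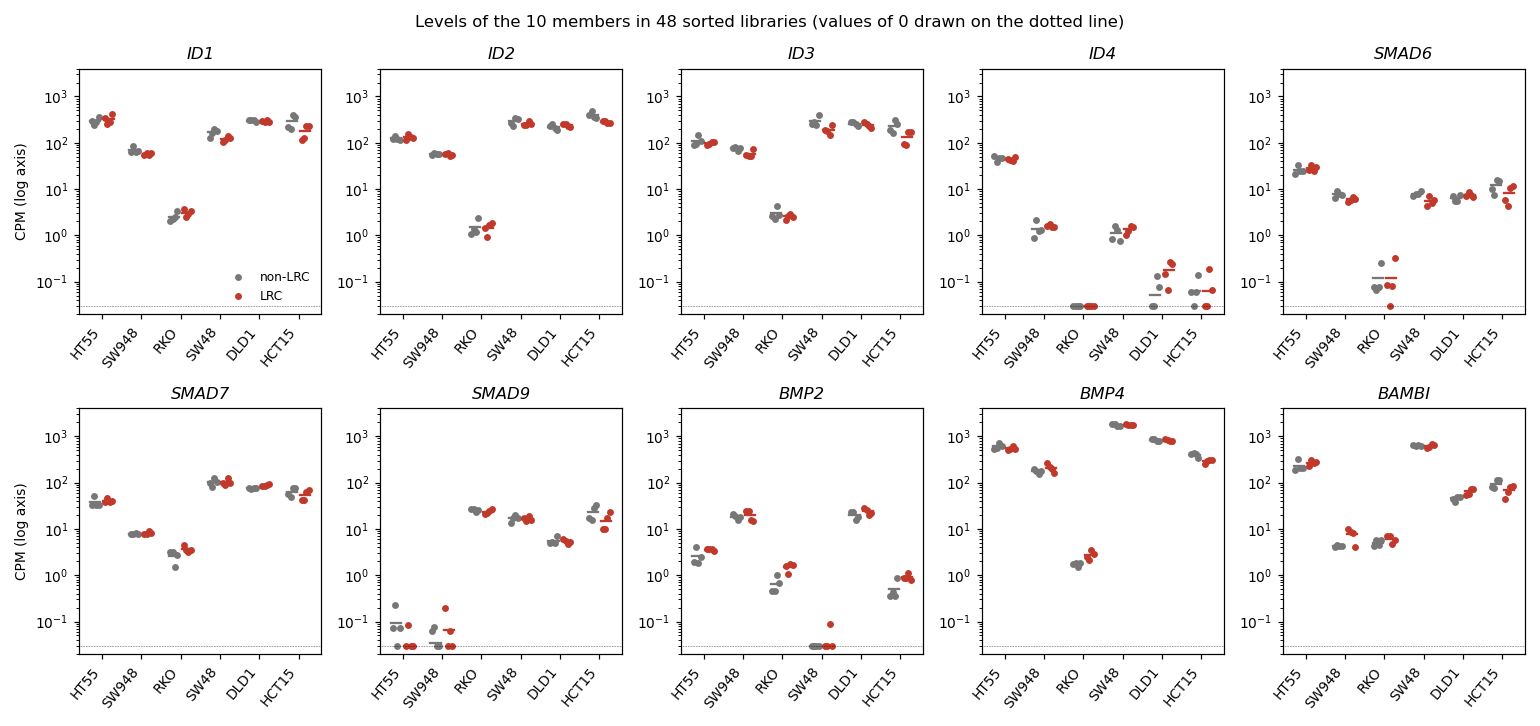
Level of each of the 10 genes in the 6 lines, as CPM on a log axis, with a point for each of 4 LRC and 4 non-LRC libraries. RKO sits lowest for ID1, ID2, ID3, SMAD6, SMAD7 and BMP4 and highest for SMAD9 (mean 25.9 CPM in non-LRCs), and the populations of a line overlap for most genes.

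LRCs were then compared with non-LRCs over the 48 sorted libraries with line as a covariate, the comparison by which slow-cycling cells were characterized. ID3 was lower in LRCs and BMP2 was higher, and none of the other 8 genes passed, so 2 of 10 genes were called against 22.9% of all genes tested (12.2% higher and 10.7% lower). The share of members called was thus near the background. The median log2 fold change of the 10 genes was -0.068, against 0.015 over all genes.

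ID3 ran from 89.9 to 172 CPM in HCT15-LRCs and from 164 to 308 CPM in HCT15 non-LRCs, from 149 to 241 against 243 to 405 CPM in SW48, and from 51.2 to 71.6 against 65.1 to 81.7 CPM in SW948. In HT55 it ran from 89.5 to 105 against 89.9 to 148 CPM, in DLD1 from 208 to 274 against 227 to 276 CPM and in RKO from 2.2 to 2.87 against 2.2 to 4.31 CPM. The LRC mean was the lower one in all 6 lines, the ranges were apart only in SW48, and the LRC library was below its same-numbered non-LRC library in 22 of 24 pairs. Counts of pairs here include RKO and SW948, where the numbers were not found to pair the libraries. The log2 fold change of ID3 was -0.40 ± 0.086 (SE; adjusted p = 0.000496). ID1 had the same sign but missed the threshold, at -0.23 ± 0.09 (adjusted p = 0.0535, lower in 16 of 24 pairs). With same-numbered libraries of a line as a block, which the data bear out in 4 of 6 lines, ID1 passed as well (-0.24 ± 0.066, adjusted p = 0.00758), making 3 of 10 genes against 25.5% of all genes. BMP2 was higher in LRCs in 17 and lower in 4 of 24 pairs, the rest being at 0 in both, with a log2 fold change of 0.41 ± 0.11 (adjusted p = 0.00375). Its level was 24 CPM in LRCs against 19.9 CPM in non-LRCs of DLD1, 3.55 and 2.56 CPM in HT55, and 1.51 and 0.653 CPM in RKO. The rise was not uniform in SW948, where the means were 19.8 and 18.3 CPM in the same order. There BMP2 was higher in LRCs in 2 pairs and lower in 2. In RKO and HCT15 the gene was thus below 2 CPM, and it had none to speak of in SW48. The BMP2 call was lost without the libraries of replicate 1 in every line, and BAMBI passed in addition, higher in LRCs, without the HCT15 libraries. Of 6 proliferation genes, 3 were lower in LRCs across the lines, with fold changes of the 6 from -0.39 to -0.064 on the log2 scale, and their part in these results was not tested.

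Calls among other pathway genes were mostly upward in LRCs, though most of these genes did not pass. Of 98 other pathway genes in the files, grouped by role, 73 were tested, 25 rose and 1, TGIF2, fell (12.2% and 10.7% over all genes), with a median log2 fold change of 0.11. Among ligands, 6 of 15 rose. They were led by INHBA, the activin A subunit, at 2.13 ± 0.32 (adjusted p = 5.02e-06), which went from 3.31 to 17.5 CPM in SW48 and stayed under 0.2 CPM in the other lines. INHBE (1.5 ± 0.30) and GDF15, a stress-induced ligand (0.93 ± 0.21), followed. Of 15 receptors and co-receptors, 5 rose, among them ACVR2A (0.21 ± 0.044), TGFBR3 (0.17 ± 0.047) and ACVR1 (0.14 ± 0.039). SMAD3 rose (0.35 ± 0.078, adjusted p = 0.000669) as the single one of 5 signal-carrying SMADs, while SMAD1 (-0.10 ± 0.049) and SMAD5 (-0.029 ± 0.041) did not pass. FSTL1 (0.66 ± 0.21), FSTL3 (0.29 ± 0.069) and NBL1 (0.16 ± 0.051) were the 3 of 12 extracellular inhibitors and carriers that rose. Among 12 intracellular regulators 4 rose, including PMEPA1 (0.56 ± 0.13), SMURF1 (0.20 ± 0.035) and NEDD4L (0.16 ± 0.05). Of 14 other response genes 6 rose, led by the cell cycle inhibitors CDKN2B (0.99 ± 0.13) and CDKN1A (0.82 ± 0.12) and by CCN2 (0.97 ± 0.18). The ID genes, the BMP targets, did not rise with them. These rises are averages over the lines. For 21 of the 73 genes the LRC difference varied between lines (edgeR), against 14.3% of all genes. SMAD3, INHBE, GDF15, CDKN2B, CDKN1A and CCN2 were among the 21.

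Line by line, HCT15 had the most calls among these genes. Tested as 4 against 4 unpaired libraries, 0 of 9 genes passed in HCT15 (edgeR, 0.977% of all genes), and 2415 of 14017 genes had an unadjusted p-value under 0.05. Same-numbered HCT15 libraries deviated together, however, and with the replicate number as a block 8 of the 9 genes were lower in LRCs, against 21.3% of all genes called and 10% called lower. The LRC library was below its same-numbered partner in all 4 pairs for each of these 8 genes. Without LRC replicate 4, BMP4 passed in the unpaired test too, and the share of all genes called then is not given here.

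ID1 was at 114, 126, 228 and 234 CPM in LRC replicates 1 to 4 and 223, 195, 401 and 352 CPM in non-LRC replicates 1 to 4. ID3 was at 94.8, 89.9, 172 and 169 CPM in LRC replicates 1 to 4 and 185, 164, 308 and 259 CPM in non-LRC replicates 1 to 4. For both genes replicates 3 and 4 were high and replicates 1 and 2 low in either population, so the unpaired ranges overlapped although each pair moved one way. With the block the log2 fold change was -0.73 ± 0.07 for ID1 (adjusted p = 3.12e-06) and -0.80 ± 0.066 for ID3 (adjusted p = 6.36e-07). ID2 was at 294, 290.0, 264 and 260.3 CPM in LRC replicates 1 to 4 and 393, 481, 364 and 344 CPM in non-LRC replicates 1 to 4. Its ranges did not overlap, and its log2 fold change was -0.49 ± 0.071 (adjusted p = 0.000164, and 0.0625 without the block).

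The feedback inhibitors moved the same way. BAMBI was at 44.3, 63.6, 80.1 and 83.4 CPM in LRC replicates 1 to 4 and 78.9, 76.6, 113 and 112 CPM in non-LRC replicates 1 to 4, with a log2 fold change of -0.48 ± 0.075 (adjusted p = 0.000274). SMAD6 fell by 0.58 and SMAD7 by 0.23 on the log2 scale (adjusted p = 0.00238 and 0.0179), from 12.1 to 8.18 CPM and from 64.3 to 54.4 CPM. SMAD7 was the smallest of these changes and was lost when pair 1 or pair 3 was left out, while the other 7 genes passed whichever pair was left out. SMAD9 fell by 0.66 on the log2 scale, from 23.6 to 15 CPM (adjusted p = 8.9e-05). Of the ligands, BMP4 was at 256, 289, 305 and 307 CPM in LRC replicates 1 to 4 and 412, 437, 406 and 348 CPM in non-LRC replicates 1 to 4. Every LRC library was below every non-LRC library, with a log2 fold change of -0.45 ± 0.077 (adjusted p = 0.00063, and 0.0507 without the block). BMP2, at 0.908 CPM in LRCs against 0.509 CPM in non-LRCs, gave 0.89 ± 0.35 and did not pass (adjusted p = 0.0834). Of 60 other pathway genes tested in the paired HCT15 fit, 15 were higher and 11 lower, against 21.3% of all genes called and 10% called lower. Among 6 proliferation genes 1, TOP2A, was higher and none was lower in HCT15-LRCs in the same fit.

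**Figure D2:**
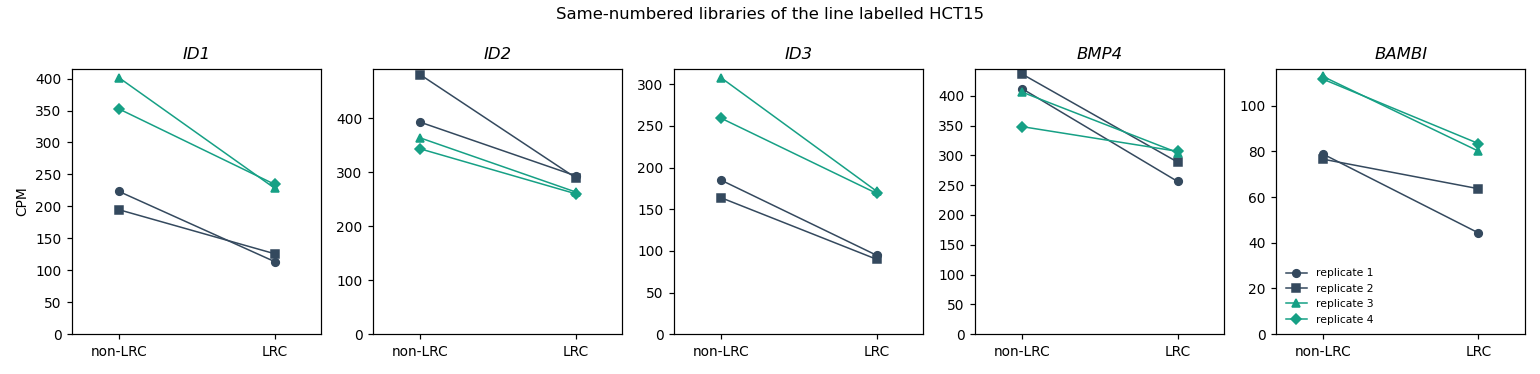
CPM of ID1, ID2, ID3, BMP4 and BAMBI in HCT15, with each line joining the non-LRC and the LRC library of the same replicate number. All 4 lines slope downward in each panel, and for ID1 and ID3 replicates 3 and 4 lie above replicates 1 and 2 in both populations.

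SW48 shared part of this pattern. No gene of 9 passed in the unpaired test (edgeR, 0.796% of all genes, with 1728 of 13196 at an unadjusted p-value under 0.05). With the block, which the paired deviations of SW48 called for, ID1, ID3 and SMAD6 were lower in LRCs, 3 of 9 against 9.69% of all genes called and 4.33% called lower. ID3 was at 186, 175, 149 and 241 CPM in SW48-LRCs and at 250, 277, 243 and 405 CPM in non-LRCs, without overlap, and its log2 fold change was -0.63 ± 0.07 (adjusted p = 0.000674). ID1 was at 101, 117, 143 and 127 CPM in LRCs against 128, 161, 199 and 181 CPM in non-LRCs, lower in all 4 pairs though the ranges overlapped (-0.44 ± 0.061, adjusted p = 0.00219). SMAD6 went from 7.92 to 5.52 CPM (-0.52 ± 0.14, adjusted p = 0.0462) and was lost without pair 1, 3 or 4. BMP4 and BAMBI, at their highest in this line among the lines, had log2 fold changes of 0.0017 ± 0.091 (95% interval -0.20 to 0.20) and -0.027 ± 0.091 (95% interval -0.23 to 0.17). SW48-LRCs had 13.8% to 14.2% of their counts on mitochondrial genes against 9.66% to 11.3% in non-LRCs, and the part of this in the ID values was not tested.

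In DLD1 the calls were upward. SMAD7 and BAMBI were higher in DLD1-LRCs, 2 of 9 genes against 14.6% of all genes called and 6.67% called higher. BAMBI was at 55.3, 56.9, 73.3 and 72.9 CPM in LRCs against 45.2, 39.0, 49.6 and 48.5 CPM in non-LRCs, and SMAD7 at 84.9, 86.3, 90.9 and 91.4 CPM in LRCs against 76.3, 74.1, 76.7 and 76.4 CPM in non-LRCs. Neither gene overlapped between the populations, with log2 fold changes of 0.53 ± 0.11 (adjusted p = 0.0118) and 0.24 ± 0.047 (adjusted p = 0.00804). With the block, 4 genes passed as higher against 33.8% of all genes called and 17.1% called higher, ID2 (0.12 ± 0.042) and BMP2 (0.29 ± 0.073) being added. The ID2 call was lost when pair 1, 3 or 4 was left out. ID1 and ID3 gave -0.029 ± 0.056 (95% interval -0.15 to 0.094) and -0.086 ± 0.087 (95% interval -0.28 to 0.10). Of 6 proliferation genes, 5 were lower in DLD1-LRCs. DLD1 and HCT15 belong to the same subtype, CCS3, and their BAMBI values moved apart.

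In RKO the genes that passed were the ligands. BMP2 was at 1.60, 1.08, 1.72 and 1.63 CPM in RKO-LRCs and 0.451, 0.453, 1.02 and 0.689 CPM in non-LRCs, and BMP4 at 2.45, 2.11, 3.44 and 2.85 CPM in LRCs against 1.73, 1.81, 1.49 and 1.82 CPM in non-LRCs. Every LRC library was above every non-LRC library for both, with log2 fold changes of 1.2 ± 0.32 (adjusted p = 0.00671) and 0.65 ± 0.22 (adjusted p = 0.0247). These were 2 of 8 genes tested, against 41.5% of all genes in this line (20.4% higher), and levels near 1 to 3 CPM rest on few reads. The BMP4 call was lost without non-LRC replicate 3 or without LRC replicate 3 or 4. SMAD7 was also apart, at 4.48, 3.59, 3.20 and 3.43 CPM in LRCs against 3.16, 3.17, 1.49 and 2.69 CPM in non-LRCs, but missed the threshold (adjusted p = 0.0991). ID1, ID2 and ID3 did not pass in RKO, where LRCs held 3.10, 1.46 and 2.55 CPM. RKO-LRCs had 7.01% to 10.5% of their counts on mitochondrial genes against 4.47% to 6.57% in non-LRCs, and 5 of 6 proliferation genes were lower in them. The part of either in the ligand values was not tested.

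Neither CCS1 line gave a call. In SW948, 0 of 9 genes passed (edgeR, 0% of all genes, with 2350 of 13674 at an unadjusted p-value under 0.05). ID1 was at 54.9, 59.2, 54.6 and 59.9 CPM in SW948-LRCs and 62.4, 85.4, 63.9 and 67.7 CPM in non-LRCs, all LRC libraries below all non-LRC libraries, with -0.28 ± 0.10 and an adjusted p of 0.192. BAMBI gave the largest value in SW948, 0.84 ± 0.23 (adjusted p = 0.15), at 10, 8.79, 8.05 and 4.07 CPM in LRCs against 4.06, 4.58, 4.20 and 4.37 CPM in non-LRCs. Without LRC replicate 4, the lowest of its group, BAMBI, ID3 and BMP4 passed in SW948, and the share of all genes called then is not given here. In HT55, also 0 of 9 genes passed with or without the block (edgeR, 0% of all genes, 1005 of 13391 at an unadjusted p-value under 0.05). BAMBI passed without HT55 non-LRC replicate 2, a fit whose share of all genes called is not given here. BAMBI and BMP2 passed in the paired fit when pair 2 was left out, against 13.4% of all genes called in that fit. ID4, with a group mean above 2 CPM in HT55 alone, was at 44.1 ± 4.19 CPM in LRCs against 45.7 ± 5.37 CPM in non-LRCs, with -0.043 ± 0.11 (95% interval -0.28 to 0.19).

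**Figure D3:**
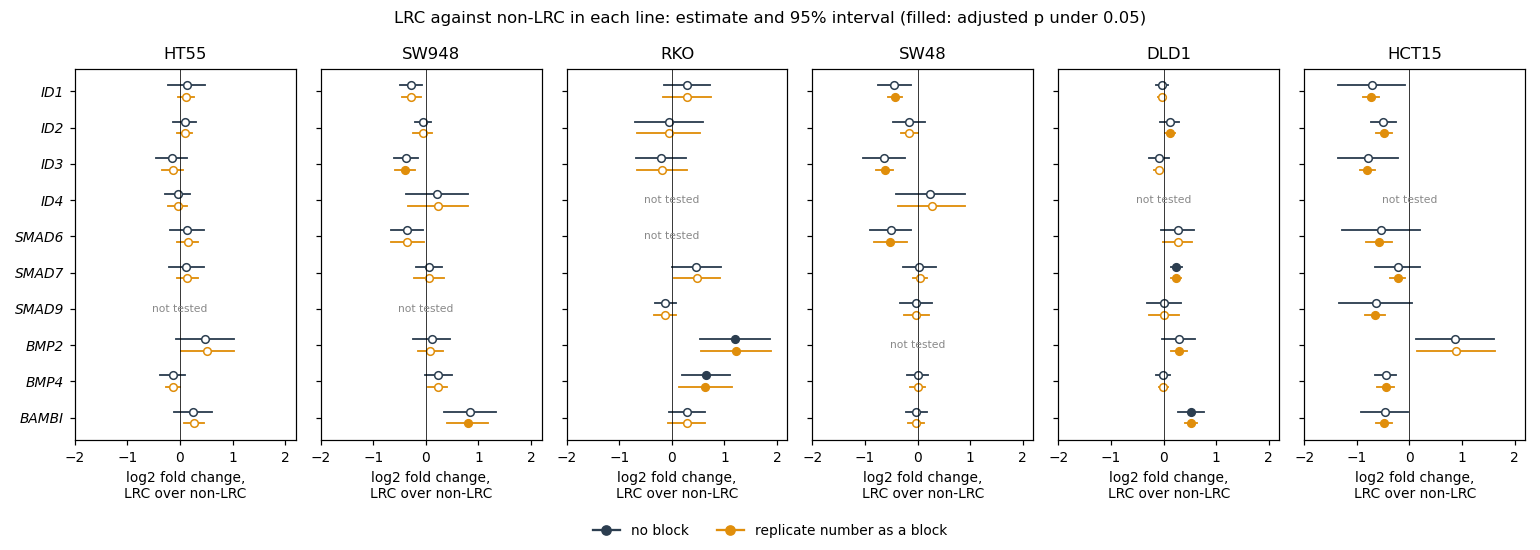
Log2 fold change of LRCs against non-LRCs for each gene in each line, with bars for the 95% interval and filled points for an adjusted p-value under 0.05. HCT15 lies below 0 for 8 of 9 genes and DLD1 above 0 for SMAD7 and BAMBI.

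Whether the LRC difference varied between lines was tested in one fit over the 12 groups. It varied for ID2 (adjusted p = 0.0493), BMP4 (0.00100) and BAMBI (0.00658), 3 of 10 genes against 14.3% of all genes, and with the block for 9 of 10 against 33.6%. Only BMP4 remained without replicate 1 or without replicate 3. For all 3 genes HCT15 differed from the rest, in a contrast that called 2.11% of all genes. Its LRC difference was below the mean of the other 5 lines by 0.86 ± 0.19 on the log2 scale for BAMBI (adjusted p = 0.00935), by 0.61 ± 0.12 for BMP4 (adjusted p = 0.00225) and by 0.49 ± 0.13 for ID2 (adjusted p = 0.0401). For BMP4, RKO lay above the mean of the others by 0.74 ± 0.19 (adjusted p = 0.00574, 16.3% of all genes called). The LRC differences of ID1 and ID3 did not pass as differing between lines in the unpaired fit (adjusted p = 0.0715 and 0.201) and passed with the block (adjusted p = 3.73e-07 and 3.5e-05).

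In the controls labeled DLD1, ID1, ID3 and SMAD6 were higher on the later day with and without dye. In DMSO cells 7 of 9 genes tested rose from day 1 to day 5 (edgeR, 25.5% of all genes called, 12.4% higher), and the 2 ligands did not pass. ID4 had too few counts to be tested. The count rested on single libraries. Day 1 replicate 4 held the highest day 1 level of all 7 genes. No gene passed (edgeR) when day 1 replicate 1, 2 or 3 was left out, with replicate 4 still in the group, and 7 passed when replicate 4 itself was left out. The count was 1, 4 or 2 without day 5 replicate 1, 2 or 3. Reads outside genes were 8.96% to 13.6% on day 1 and 5.19% to 8.35% on day 5 in DMSO cells, and 12.1% to 14.8% and 5.2% to 7.31% in CFSE cells, and the part of this in the changes over time was not tested.

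ID1 was at 90.1, 88.7, 84.4 and 237 CPM in DMSO replicates 1 to 4 on day 1 and 292, 248, 269 and 265 CPM on day 5. BAMBI was at 26.5, 30.2, 29.3 and 149 CPM on day 1 and 143, 149, 155 and 155 CPM on day 5. Replicate 4 of day 1 held the highest day 1 value of both genes and lay among the day 5 libraries for BAMBI. The log2 fold change with all libraries was 1.07 ± 0.29 for ID1 (adjusted p = 0.0174) and 1.33 ± 0.45 for BAMBI (adjusted p = 0.0421). Without replicate 4 it was 1.49 ± 0.20 (adjusted p = 5.8e-05) and 2.27 ± 0.28 (adjusted p = 2.35e-05), with 42.1% of all genes called and 19.2% called higher. SMAD9 had the steepest rise, from 2.94, 2.84, 3.67 and 17.5 CPM to 31.6, 14.6, 16.6 and 15.6 CPM, 1.5 ± 0.49 with and 2.51 ± 0.35 without that library. ID2 (1.09 and 1.57), ID3 (1.02 and 1.38), SMAD6 (1.21 and 1.95) and SMAD7 (1.03 and 1.51) gave log2 fold changes of similar size, with and without it in turn. BMP4 did not pass, at 0.26 ± 0.12 (adjusted p = 0.126), and 0.29 ± 0.11 without replicate 4 (adjusted p = 0.05004).

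With CFSE, 4 genes rose over the same time, ID1, ID3, SMAD6 and BMP4 (39.3% of all genes called, 20.2% higher), and the same 4 passed with the replicate block (42.3% called, 21.9% higher). ID3 was at 28.3, 29.7, 25.0 and 24.2 CPM on day 1 and 65.2, 64.1, 99.9 and 117 CPM on day 5, and ID1 at 45.2, 47.7, 39.8 and 40.7 CPM and 80.5, 74.9, 135 and 160.3 CPM. All day 5 libraries were above all day 1 libraries, and replicates 3 and 4 of day 5 were the higher ones. The log2 fold changes were 1.61 ± 0.26 for ID3 (adjusted p = 0.0004), 1.3 ± 0.29 for ID1 (adjusted p = 0.00291), 2.09 ± 0.49 for SMAD6 (adjusted p = 0.0037) and 0.43 ± 0.12 for BMP4 (adjusted p = 0.012). SMAD7, SMAD9 and BAMBI also had ranges apart but missed the threshold (adjusted p = 0.0744, 0.0595 and 0.0887). Ranges apart were not counted over all genes, of which 7049 of 14518 had an unadjusted p-value (edgeR) under 0.05. The groups share one estimate of spread, and without DMSO day 1 replicate 4 in the fit 8 genes passed as higher, BMP2 being the exception (43.7% of all genes called, 21.5% higher).

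Other pathway genes were less uniform. Over time in DMSO cells 17 of 63 tested rose and 3 fell (12.4% and 13.1% over all genes). Without DMSO day 1 replicate 4 these were 30 and 4 of 62 (19.2% and 22.9% over all genes), with all 5 signal-carrying SMADs among the higher ones. In CFSE cells 18 rose and 13 fell (20.2% and 19.1% over all genes). Values below are from all libraries. SMAD1, which carries the BMP signal, rose in both (0.63 ± 0.15 and 0.74 ± 0.15), as did SMAD2 (0.34 ± 0.12 and 0.49 ± 0.12), and SMAD4 rose in DMSO cells (0.57 ± 0.19), while SMAD3 did not pass in CFSE cells (-0.23 ± 0.13). The BMP receptor BMPR1A rose by 0.49 ± 0.14 and 0.50 ± 0.14. MSX2, a homeobox target of BMP, rose by 1.03 ± 0.24 and 0.94 ± 0.25, and ATOH8, another BMP target, by 3.06 ± 0.77 in CFSE cells. TGFB2 rose (1.72 ± 0.44 and 2.65 ± 0.49) and AMH fell (-2.11 ± 0.42 and -2.31 ± 0.42). CCN2, higher in LRCs across the sorted lines, fell in CFSE cells (-4.37 ± 0.81), from day 1 libraries that ran from 8.71 to 170 CPM to 2.02 to 6.58 CPM on day 5. Further DMSO values were -1.66 ± 0.45 for GDF15, 0.94 ± 0.23 for TGFBR3, 0.62 ± 0.15 for ACVR1B, 0.81 ± 0.19 for TWSG1, 0.84 ± 0.18 for TGIF2 and 1.83 ± 0.59 for TGFBI, while TNS1 (1.02 ± 0.38) passed only without DMSO day 1 replicate 4. Further CFSE values were 0.76 ± 0.13 for GDF11, 0.98 ± 0.15 for TGFBR2, 1.86 ± 0.27 for LTBP1, -1.0 ± 0.15 for LTBP3 and -1.09 ± 0.40 for SKIL. Of 6 proliferation genes, 2 were lower on the later day in DMSO cells, or all 6 without DMSO day 1 replicate 4, and 3 were higher in CFSE cells with or without it.

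CFSE cells had less ID1 and ID3 than DMSO cells on both days. On day 1, 5 of 9 genes differed between CFSE and DMSO cells (21.8% of all genes, 12% lower and 9.73% higher). ID1 (-1.48 ± 0.29, adjusted p = 0.00383), ID3 (-2.0 ± 0.27, adjusted p = 0.000375), SMAD6 (-2.24 ± 0.49, adjusted p = 0.00578) and SMAD9 (-1.49 ± 0.52, adjusted p = 0.0497) were lower with CFSE, and BMP2, near 1 CPM, was higher (1.51 ± 0.44, adjusted p = 0.0235). SMAD6 was at 1.45, 0.822, 0.706 and 0.726 CPM with CFSE and 2.99, 2.29, 2.35 and 10.4 CPM with DMSO, without overlap. Without DMSO replicate 4, ID1 (-1.03 ± 0.20, adjusted p = 0.00424), ID3 (-1.60 ± 0.17, adjusted p = 8.08e-05) and SMAD6 (-1.48 ± 0.36, adjusted p = 0.0125) still passed, with 18% of all genes called and 10.6% called lower, and SMAD9 and BMP2 did not. SMAD9 and BMP2 were also lost without CFSE replicate 1 or 2. The day 1 CFSE libraries had 12.1% to 14.8% of reads outside genes, against 8.96% to 13.6% in DMSO cells, and the part of this in the values was not tested.

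On day 5, ID1 and ID3 were lower with CFSE, 2 of 9 genes against 5.13% of all genes called and 2.03% called lower. ID1 was at 80.5, 74.9, 135 and 160.3 CPM with CFSE and 292, 248, 269 and 265 CPM with DMSO, and ID3 at 65.2, 64.1, 99.9 and 117 CPM and 232, 218, 228 and 233 CPM. Every CFSE library was below every DMSO library, with -1.25 ± 0.29 for ID1 (adjusted p = 0.0252) and -1.40 ± 0.26 for ID3 (adjusted p = 0.0169). ID2, SMAD6, SMAD7, SMAD9 and BAMBI had ranges apart in the same direction without passing. How many of all genes had ranges apart was not counted, and 3537 of 14518 had an unadjusted p-value (edgeR) under 0.05. No gene was called when CFSE replicate 1 or 2, or DMSO replicate 1 or 4, was left out, and 1 gene without DMSO replicate 3. Without DMSO day 1 replicate 4 in the fit, SMAD6, SMAD7 and SMAD9 were added (13.3% of all genes called, 6.22% lower). Of 6 proliferation genes, 5 were higher with CFSE on this day.

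No gene of 9 passed the test of whether the change over time differed by dye (edgeR, 0.999% of all genes called, 2474 of 14518 at an unadjusted p-value under 0.05). Without DMSO day 1 replicate 4, BAMBI alone passed, with a smaller rise in CFSE cells (-1.28 ± 0.36, adjusted p = 0.0444, 6.09% of all genes called and 1.64% called lower). These comparisons share their groups of libraries and are not independent of each other. Set beside the sorted lines, ID3 was lower in LRCs across the lines (-0.40) and lower with dye in the controls (-2.0 on day 1 and -1.40 on day 5), and LRCs were sorted for high dye. The part of the dye in the LRC difference was not tested.

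**Figure D4:**
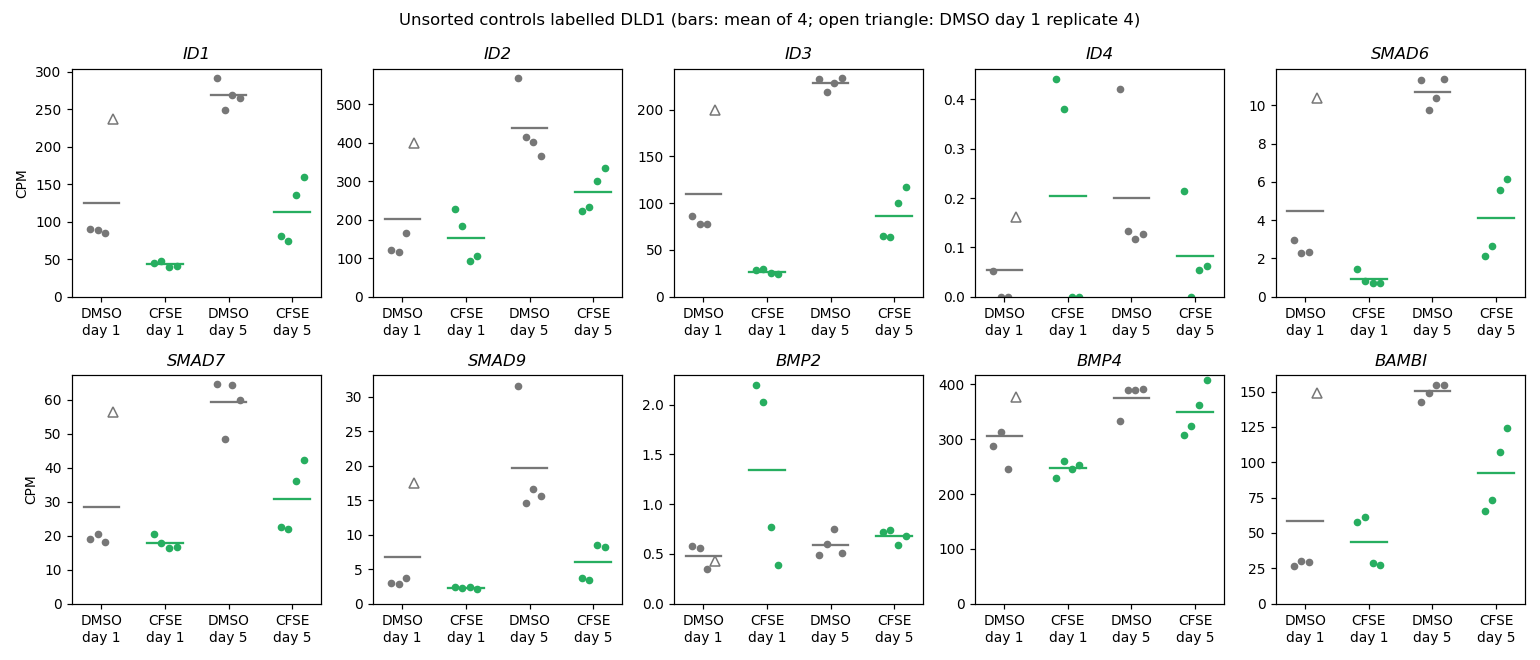
CPM on a linear axis of the 10 genes in the 16 controls labeled DLD1, by dye and day. Each library is a point, and DMSO day 1 replicate 4 is drawn as an open triangle. That library lies with the day 5 DMSO libraries for most genes, and CFSE libraries lie below DMSO libraries of the same day for ID1 and ID3.

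The sorted libraries also showed which of the genes varied together. After each line's mean log2 CPM had been subtracted, Pearson's r over the 48 sorted libraries, which share lines, cultures and library preparation and are given as a description, was 0.69 between ID1 and SMAD6, 0.66 between ID1 and ID3, and 0.56 between ID3 and SMAD6. It was 0.57 between SMAD7 and BAMBI and 0.48 between SMAD9 and BAMBI. ID1 and ID2 were at 0.34, and ID3 and BMP2 ran against each other at -0.27. Subtracting the mean of each line and population gave 0.12 for ID1 and ID2 and 0.095, of the opposite sign, for ID3 and BMP2. Pairs named before these gave, in the same order, 0.63, 0.52, 0.42, 0.54 and 0.59. Among all genes whose log2 CPM averaged 1 or more, SSBP3 (0.81), HOXB6 (0.79) and HR (0.76) varied most like ID1, and VPS28 (0.80), HOXB6 (0.78) and ECH1 (0.77) most like ID3. HOXB6 (0.73), PRR15 (0.70) and ID1 itself (0.69) varied most like SMAD6, so HOXB6 was among the nearest for 3 of the 10 genes. It stayed so for ID1 and ID3 but not SMAD6 with a prior count of 0.5, and for SMAD6 alone with the mean of each line and population subtracted. For BAMBI these were APCDD1, an inhibitor of Wnt signaling (0.81), CERK (0.77) and ZNF211 (0.76), for SMAD7 ATP9A (0.79), IRF2BP2 (0.78) and GARNL3 (0.77), and for SMAD9 TMTC4 (0.67), PODXL2 (0.66) and SLC6A6 (0.65). For the ligands they were TSPAN5 (0.77), CRAT (0.71) and TSPAN9 (0.70) with BMP4, and VSIR (0.75), TIMP2 (0.73) and the mitochondrial MT-RNR1 (0.70) with BMP2. For ID2 they were RHOBTB3 (0.54), PPCS (0.51) and STT3B (0.50), the lowest of the 10, and for ID4, a gene of HT55, KREMEN1 (0.67), EFCAB14 (0.65) and LPCAT3 (0.63). With a prior count of 0.5 in place of 2, none of the 3 nearest genes was unchanged for SMAD6 and SMAD9. With the mean of each line and population subtracted, 2 of the 3 nearest genes were unchanged for ID1 and BAMBI, 1 for ID3, SMAD6, SMAD7 and BMP4, and none for ID2, ID4, SMAD9 and BMP2.

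**Figure D5:**
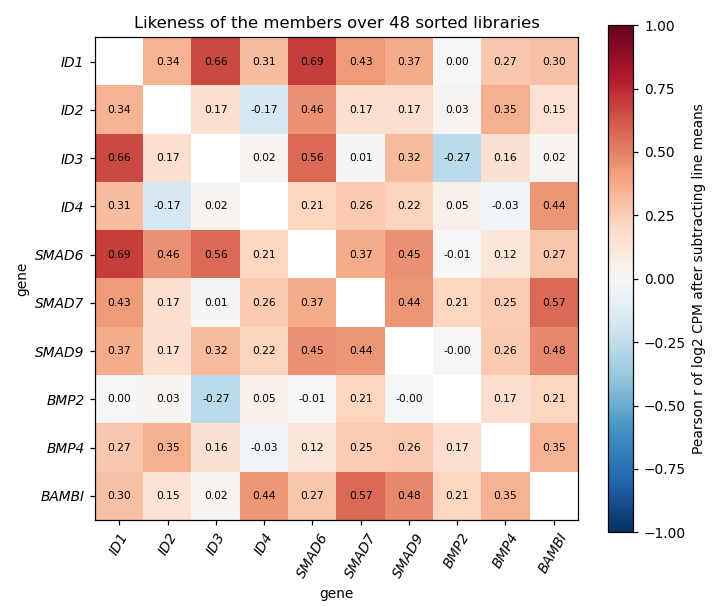
Pearson's r between the 10 genes over 48 sorted libraries after subtraction of each line's mean log2 CPM. ID1, ID3 and SMAD6 form one block of high values (0.56 to 0.69), and SMAD7 and BAMBI another (0.57).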

How the data were processed

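RNA was sequenced from 48 sorted and 16 control libraries of colorectal cancer cell lines as 50-bp single-end reads. The authors deposited one table per library with raw counts per gene, not normalized, after alignment to hg19 (GRCh37). TopHat, HTSeq and DESeq are named in the submitters' processing notes, and strand use in counting is not given in the sources used here. Summary counts at the end of each table stayed out of all totals. Reads outside genes came to 5.19% to 14.8%, and genes with few counts carry a large counting error at 12237225 to 20913455 counts per library.

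Libraries were grouped by their labels. Gene symbols, positions and exon lengths came from GENCODE release 44 on GRCh37 (47098 of 54127 genes matched), and levels per kilobase used the union of a gene's exons. Genes reaching 10 counts in 4 or more libraries of a comparison were tested in R 4.3.3 with edgeR 4.0.16 (TMM scaling, two-sided quasi-likelihood test) and Benjamini-Hochberg adjustment over all genes tested and a threshold of 0.05. SE is the absolute log2 fold change divided by the root of the F statistic. Sorted libraries were fitted with line as a covariate, by line alone (8 libraries), and as 12 group means for differences between lines. Controls were fitted as 4 group means. The 95% intervals come from this SE and include the spread between libraries. Log2 CPM used a prior count of 2, and limits at 0 counts, set at 3 counts over the group, cover counting error only. The scripts were tested on simulated data.

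The labels share replicate numbers 1 to 4 between groups. Numbers were taken to pair the libraries where every same-numbered pair of deviations from the group means had a correlation across genes over 0.1. This held in HT55 (0.141 to 0.395), SW48 (0.128 to 0.461), DLD1 (0.154 to 0.334) and HCT15 (0.239 to 0.431) and for CFSE day 1 with day 5 (0.127 to 0.240), so the pairing comes from the data and the shared numbers, and blocked values stand beside these results. Of 4 libraries, 4 correlated best with their own number in SW48 and 3 in HT55 and in HCT15. In DLD1 and for CFSE day 1 with day 5 only 2 of 4 did. No pair of libraries was identical, and the closest of 96 replicate pairs had a mean chi-square per gene of 2.19.

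The 10 genes and the lists were chosen with earlier results of these data known. All 10 are described in every comparison. Of 99 other pathway genes listed by hand, up to 3 per role with the smallest p-values are named across the lines and over time, and up to 3 genes most alike per member. The palindrome motif and the paired fits without one pair were added after seeing the data. Alternatives were DESeq2 1.42.0, other scaling and filters, the block, one fit over all 48 sorted libraries, a prior count of 0.5, and single libraries or lines left out.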

Additional observations from a re-analysis of the deposited data

Results flagged for a closer look

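Among 138 groups of 4 libraries, 14 held a highest or lowest library farther from the rest than a 95% limit for gaps allows, and chance alone would give about 1 in 20. DMSO day 1 replicate 4 of the controls accounted for 6 of them, as the highest of its group at 237 CPM of ID1, 199 CPM of ID3, 10.4 CPM of SMAD6, 56.6 CPM of SMAD7, 17.5 CPM of SMAD9 and 149 CPM of BAMBI. In the other controls, CFSE day 1 replicate 1 was highest for SMAD6 at 1.45 CPM, and DMSO day 5 replicate 1 was highest for SMAD9 at 31.6 CPM and lowest for BMP4 at 333 CPM. HT55 non-LRC replicate 2 was highest for SMAD7 at 50.7 CPM and for BAMBI at 318 CPM, and HT55-LRC replicate 4 was lowest for BMP2 at 3.28 CPM. DLD1 non-LRC replicate 2 was lowest for SMAD7 at 74.1 CPM, within 3 CPM of its group, and SW948 non-LRC replicate 3 was highest for SMAD7 at 8.14 CPM.

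The difference between LRCs and non-LRCs was not the same in all lines for BAMBI (adjusted p = 0.00658, edgeR), BMP4 (adjusted p = 0.00100) and ID2 (adjusted p = 0.0493). All 3 were lower in LRCs in all 4 pairs of HCT15, and BAMBI was higher in all 4 pairs of DLD1. In RKO, where the numbers did not pair the libraries, every LRC library was above every non-LRC library for BMP4, while BAMBI overlapped.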

How the results depend on the processing

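Counts are of the 10 genes that passed. The share of all genes called also moved with the setting, in HCT15 from 0.977% without the block to 21.3% with it. It is not given here for most settings, so a change in these counts is not by itself a result about these genes. With the replicate block, 9 in place of 3 differed between lines in their LRC effect, 8 in place of 0 were called in HCT15, 3 in place of 0 in SW48, 4 in place of 2 in DLD1 and 5 in place of 2 for CFSE against DMSO on day 5. The block gave 2 in place of 0 in SW948, where the same-numbered libraries had correlations of 0.011 to 0.119 and 1 of 4 correlated best with its own number, and moved no other count by more than 1.5 times. In RKO (-0.070 to 0.015) the numbers did not pair the libraries. DESeq2 gave 2 in SW948, 1 in SW48, 3 in HCT15 and 5 for CFSE on day 5. Without a filter there were 5 for the difference between lines, 8 over time with CFSE, 5 for CFSE on day 5, 2 in SW948, 1 in SW48 and 3 in HCT15. With at least 10 counts in every library, fewer genes could be tested, and 1 passed across the lines, 6 for levels between lines, 82 of the comparisons between pairs of lines and 1 in RKO. Library size without TMM gave 3 over time with DMSO and 1 in HCT15. One fit over all 48 sorted libraries gave 1 in SW948, 1 in SW48, 0 in DLD1 and 4 in HCT15. Where no cause is stated, it was not tested. With single replicates or lines left out, counts ran from 1 to 3 across the lines, 1 to 3 for the difference between lines, 10 to 10 for levels, 126 to 131 for pairs of lines, 0 to 7 over time with DMSO, 4 to 8 over time with CFSE, 3 to 5 and 0 to 5 for CFSE on day 1 and day 5, 0 to 1 for dye by time, 0 to 1 in HT55, 0 to 3 in SW948, 1 to 2 in RKO, 0 to 0 in SW48, 2 to 2 in DLD1 and 0 to 1 in HCT15. In the paired fits they ran from 0 to 2 in HT55, 2 to 3 in SW48, 3 to 4 in DLD1 and 7 to 8 in HCT15. No fold change of a called gene reversed. Depth limits ID4 outside HT55, BMP2 in HCT15, RKO and SW48, and SMAD9 in HT55 and SW948.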
